A study of Homo sapiens with 18 samples.

Results

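Kallikrein-related peptidases KLK5 to KLK14 were read from the mRNA sequencing of 3 head and neck squamous cell carcinoma (HNSCC) lines. The members were the rows of the raw count table named KLK5, KLK6, KLK7, KLK8, KLK9, KLK10, KLK11, KLK12, KLK13 and KLK14, which are 10 of 19901 genes. SCC-9 derives from the tongue and FaDu from the hypopharynx, both taken from primary carcinomas, while Detroit 562 came from a metastasis of a pharyngeal carcinoma. In each line, cells were left untreated (control) or were given hepatocyte growth factor (HGF, the ligand of the Met receptor) at 50 ng/ml, with 3 libraries per group and 18 in all. Treatment lasted 16 h by the sample records and the study's methods, while the series record gives 48 h. SCC-9 was kept in DMEM F12 medium supplemented with hydrocortisone and the other lines in MEM-α, so for SCC-9 the line and the medium cannot be told apart. Each line stands for a single established culture. The study's methods state that the experiment was repeated, but the labels do not tie the numbered libraries to those repeats, so p-values measure the spread between these libraries, part of which may be technical.

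KLK5 to KLK14 encode secreted serine proteases that are made as inactive precursors and cut each other into active form. In stratified squamous epithelium, KLK5, KLK7 and KLK14 are best known for cutting the corneodesmosome proteins that hold the outermost cells together, a cascade held in check by LEKTI, the product of SPINK5. Several of them also cleave protease-activated receptors, PAR2 (F2RL1) foremost, and some are known as markers of carcinomas.

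The 10 genes lie side by side on the minus strand of chromosome 19 (GRCh38), from 50943303 to 51084245, a span of 141 kb. Reads were counted over the whole extent of each gene, introns included, on its strand, and a read falling in overlapping genes was counted for each. KLK8 and KLK9 are overlapped by the annotated read-through gene CTC-518B2.8 (50996018 to 51009581), and the extent of KLK6 holds 1 further same-strand gene of GENCODE 44 that has no row in the table. Of the 10 members, 9 passed the filter on low counts. KLK12, a trypsin-like member, had 0 counts in all 6 Detroit 562 libraries and 0 to 2 in the others, and was not tested.

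The 250 bases before the RefSeq start site (GRCh38.p14) are shown for the 4 members that set the lines apart most or moved with HGF, KLK5, KLK6, KLK7 and KLK10, using for each the start nearest to the 5′ end of the counted gene. Capitals mark matches to 4 short motifs searched on both strands. These were the letters of an AP-1 site, TGANTCA, those of the TATA box given as TATAAA, those of a GC box, which read GGGCGG, and the E-box letters, searched as CACCTG. No match in these windows overlapped another.
KLK5 (chr19:50953039-50953288, minus strand): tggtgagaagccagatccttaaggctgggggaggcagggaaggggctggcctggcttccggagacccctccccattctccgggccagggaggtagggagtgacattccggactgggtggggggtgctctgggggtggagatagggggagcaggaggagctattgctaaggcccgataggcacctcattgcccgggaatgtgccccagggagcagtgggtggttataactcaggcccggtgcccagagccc
KLK6 (chr19:50969592-50969841, minus strand): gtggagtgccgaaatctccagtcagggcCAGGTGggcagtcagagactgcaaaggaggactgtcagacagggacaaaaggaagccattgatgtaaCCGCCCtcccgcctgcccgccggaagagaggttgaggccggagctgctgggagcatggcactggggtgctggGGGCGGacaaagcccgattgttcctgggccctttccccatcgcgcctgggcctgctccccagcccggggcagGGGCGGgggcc
KLK7 (chr19:50984065-50984314, minus strand): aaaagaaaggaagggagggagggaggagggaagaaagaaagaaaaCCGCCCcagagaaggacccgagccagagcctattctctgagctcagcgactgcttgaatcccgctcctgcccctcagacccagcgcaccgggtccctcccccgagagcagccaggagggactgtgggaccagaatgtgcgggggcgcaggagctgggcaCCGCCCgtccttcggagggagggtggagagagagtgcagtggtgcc
KLK10 (chr19:51019862-51020111, minus strand): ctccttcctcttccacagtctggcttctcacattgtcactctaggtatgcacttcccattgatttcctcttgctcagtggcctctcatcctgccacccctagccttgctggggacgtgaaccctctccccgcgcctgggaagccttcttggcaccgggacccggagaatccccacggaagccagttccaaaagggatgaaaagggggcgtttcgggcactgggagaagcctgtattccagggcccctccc

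KLK6 held 3 GGGCGG letters and 1 CACCTG, KLK7 held 2 GGGCGG, and KLK5 and KLK10 held none of the 4 motifs in these windows. The KLK10 start lay 314 bases inside the counted gene, so its whole window fell within that gene. The distance was 55 bases for KLK5, 82 for KLK6 and 35 for KLK7. RefSeq promoters were at hand for 9 of the 10 members, with 16 start sites in all, and none for KLK8. GGGCGG was present at 10 of the 16 start sites, against 42.6% of 35114 promoters of the same length. Windows of KLK7, KLK10, KLK13 and KLK14 overlap, so some of the same letters are counted more than once. With only the start nearest to the counted 5′ end, GGGCGG was present for KLK6, KLK7, KLK9 and KLK13 among the 9 members. CACCTG was present at 3 of the 16, against 17.5% of all promoters, and TGANTCA (6.57% of all) and TATAAA (10.7% of all) at 0. These are matches of letters only.

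Total counts on genes ran from 35304770 to 44003970 per library. Levels are given as normalized counts (counts scaled to the mean effective library size by edgeR's TMM factors) and, between genes, as normalized counts per kb of exon in GENCODE 44. Epithelial markers were abundant in all 18 libraries, the sum over EPCAM, CDH1, KRT5, KRT14, KRT17, TP63 and SFN being 80798 to 449137 normalized counts, although KRT14 itself was at 49.3 ± 8.1 (SD, n = 3) in control Detroit 562 against 15684 ± 4166 in FaDu. The leukocyte markers PTPRC and CD3E were at 0 to 4 counts in every library, while CD14 reached 413 counts in SCC-9 and 239 in FaDu. The 5 fibroblast markers summed to 137 to 3977, mostly from COL1A1 and COL1A2, while LUM was at 0 to 2 counts in every library and 0 in all of FaDu. The part of such transcripts in the results below was not tested, and in bulk RNA fewer cells making a transcript and less transcript per cell cannot be told apart.

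**Figure D1:**
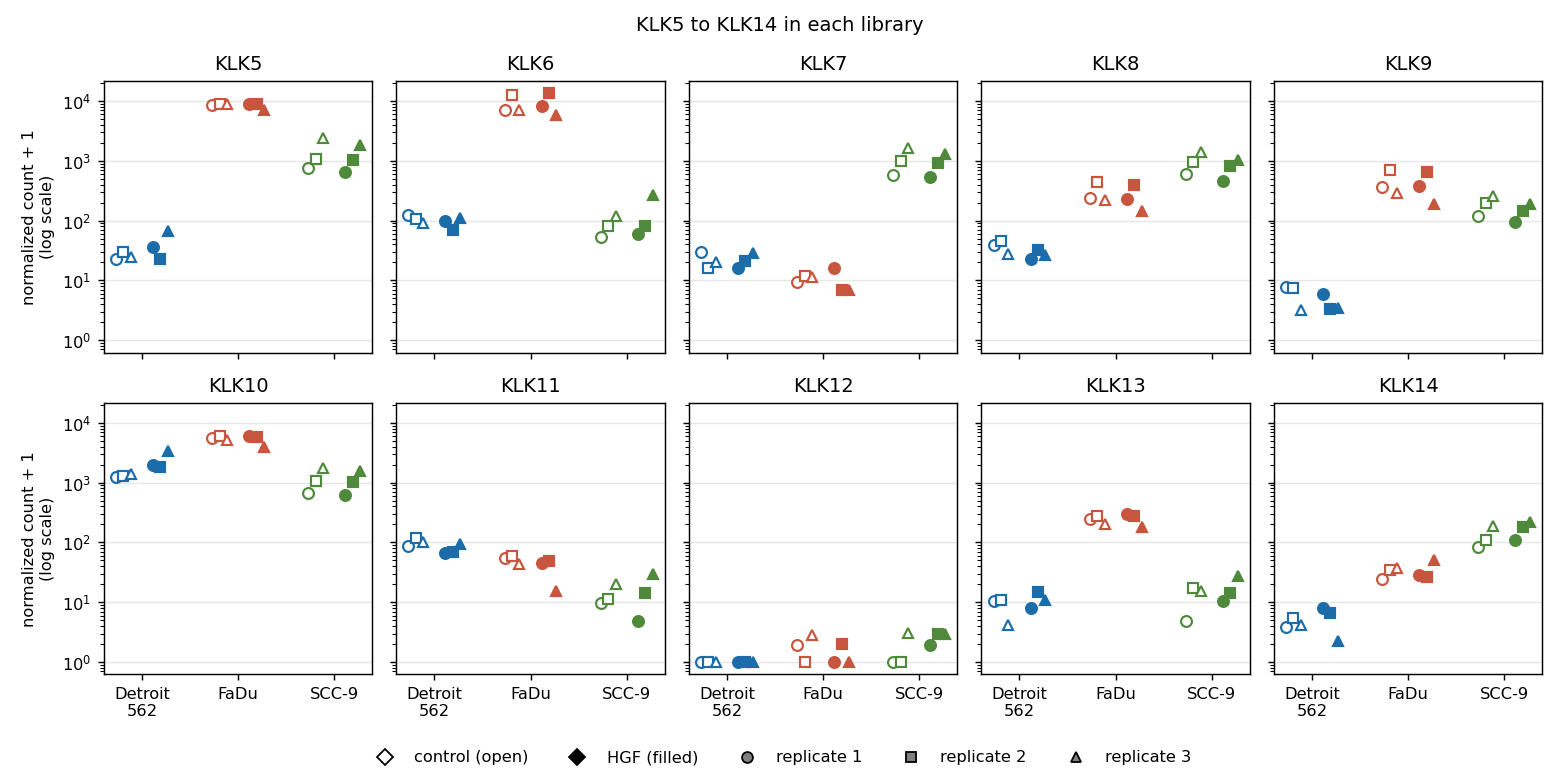
Normalized counts of each of the 10 kallikrein-related peptidases (log axis, 1 added) in the 18 libraries. Open symbols are control and filled symbols HGF, and the symbol shape gives the replicate number. The FaDu libraries all lie above the others for KLK5, KLK6, KLK10 and KLK13, those of SCC-9 for KLK7, KLK8 and KLK14, and those of Detroit 562 for KLK11.

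The 3 lines differed in which kallikrein-related peptidases were abundant. In untreated cells the summed level of the 10 members was 12168 ± 2193 normalized counts per kb in FaDu, 2500 ± 1236 in SCC-9 and 487 ± 12.4 in Detroit 562 (SD, n = 3 each). KLK10 gave 70.7% ± 3.6 of that sum in control Detroit 562, followed by KLK6 with 11.1% ± 1.7 and KLK11 with 6.67% ± 0.77. FaDu drew on KLK5 for 44.3% ± 6.9 and on KLK6 for 36.4% ± 6.5, with KLK10 at 12.3% ± 1.4. SCC-9 had the most even make-up, with KLK5 at 32.9% ± 3.9, KLK8 at 21.4% ± 1.9, KLK7 at 17.4% ± 1.1, KLK10 at 12.3% ± 0.27 and KLK9 at 9.45% ± 1.2. The shares depend on the exon length assigned to each gene, which counts every annotated exon and no intron.

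**Figure D2:**
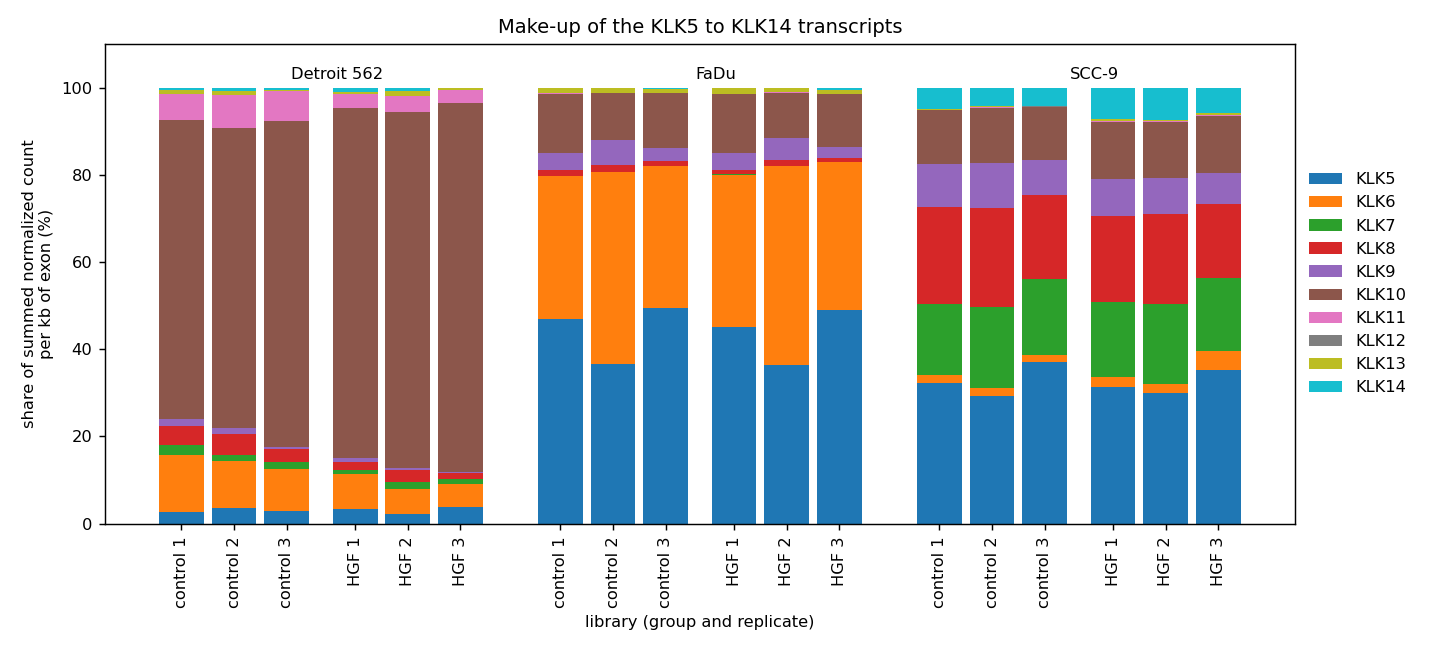
Share of each member in the summed normalized count per kb of exon of KLK5 to KLK14 (stacked bars, percent) in each of the 18 libraries. KLK10 fills 68.5 to 84.6% of every Detroit 562 bar, KLK5 and KLK6 fill most of every FaDu bar, and SCC-9 bars are shared among KLK5, KLK7, KLK8, KLK9 and KLK10.

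Members were called different where edgeR's quasi-likelihood test gave a Benjamini-Hochberg adjusted p below 0.1 over the 15475 genes tested and the log2 fold change was 0.4 or more in either direction. Between untreated Detroit 562 and untreated FaDu, 8 of 9 tested members were called, 1 higher and 7 lower in Detroit 562, where 61% of all genes were called (31.2% higher and 29.8% lower). Between untreated Detroit 562 and untreated SCC-9, 6 of 9 were called, 1 higher and 5 lower in Detroit 562, against 65.4% of all genes (31.4% higher and 33.9% lower). Between untreated SCC-9 and untreated FaDu all 9 were called, 3 higher and 6 lower in SCC-9, against 64.2% of all genes (33.5% higher and 30.7% lower). The median log2 fold change of the 9 members was -3.13, -4.73 and -2.02 in these comparisons, beside -0.01, -0.03 and 0.02 for all genes tested. The comparisons share their control libraries in pairs. KLK9 (2 to 7 counts), KLK13 (3 to 10) and KLK14 (3 to 4) were low in control Detroit 562 and passed the filter through other lines. Against the lines that carried them they could only come out lower in Detroit 562. They are among the 7 called lower against FaDu, and KLK9 and KLK14 among the 5 against SCC-9, and they enter the medians.

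KLK5 (ENSG00000167754.12, 50943303 to 50953093), the trypsin-like protease that starts the epidermal cascade, separated the lines most widely. Its normalized counts were 21.7, 29.4 and 23.8 in control Detroit 562, 8418, 8881 and 8964 in control FaDu, and 764, 1075 and 2366 in control SCC-9. The 3 lines did not overlap. The log2 fold change of Detroit 562 against FaDu was -8.45 ± 0.54 (SE, adjusted p = 3.75e-10, edgeR), a 351-fold difference, and SCC-9 lay 6.25-fold below FaDu (log2 fold change -2.64 ± 0.37, adjusted p = 5.79e-06, edgeR).

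KLK14 (ENSG00000129437.9, 51077495 to 51084245), a further trypsin-like activator of the cascade, had another order. SCC-9 controls had 83.4, 109 and 189 normalized counts, FaDu controls 23.8, 33.2 and 36.7, and Detroit 562 controls 2.84, 4.36 and 3.24. SCC-9 was thus the highest line for KLK14, 4.05-fold above FaDu (log2 fold change 2.02 ± 0.36, adjusted p = 7.5e-05, edgeR) and 35.5-fold above Detroit 562. KLK7 (ENSG00000169035.11, 50976482 to 50984099), the chymotrypsin-like enzyme of the cascade, was abundant in SCC-9 alone among the lines, with 569, 992 and 1640 normalized counts in the controls. Detroit 562 controls had 28.4, 15.2 and 19.4, and FaDu controls 8.57, 11.1 and 10.4. KLK7 was 106-fold higher in SCC-9 than in FaDu (log2 fold change 6.72 ± 0.49, adjusted p = 1.76e-09, edgeR) and 49.9-fold higher than in Detroit 562. Detroit 562 against FaDu gave a log2 fold change of 1.08 ± 0.66 with adjusted p = 0.15 for KLK7, which passed only with a replicate block (adjusted p = 0.0623) or by DESeq2 (0.0774 and 0.0718 with and without its prior).

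KLK5 and KLK7 are neighbours but for KLK6 between them, and they differed in opposite directions between FaDu and SCC-9. KLK6 (ENSG00000167755.14, 50958631 to 50969673), a trypsin-like protease known for its high level in brain and in several carcinomas, was abundant in FaDu only. Its control libraries had 7046, 12782 and 7030 normalized counts in FaDu, 52.7, 79.1 and 116 in SCC-9, and 121, 107 and 91.8 in Detroit 562. FaDu was 108-fold above SCC-9 (log2 fold change of SCC-9 against FaDu -6.76 ± 0.51, adjusted p = 2.62e-09, edgeR) and 83.7-fold above Detroit 562. Detroit 562 and SCC-9, which overlapped, did not differ beyond their spread in KLK6 (log2 fold change 0.37, 95% interval -0.74 to 1.49, adjusted p = 0.528, edgeR).

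KLK13 (ENSG00000167759.12, 51056206 to 51065114), a trypsin-like member found in oral and esophageal epithelium, was, like KLK6, highest in FaDu. FaDu controls had 246, 278 and 203 normalized counts, SCC-9 controls 3.84, 16.2 and 14.3, and Detroit 562 controls 9.45, 9.80 and 3.24. FaDu stood 31.5-fold above Detroit 562 and 21.0-fold above SCC-9 (adjusted p = 1.16e-08 and 2.14e-08, edgeR), while Detroit 562 against SCC-9 gave a log2 fold change of -0.59 with a 95% interval from -1.76 to 0.59. KLK10 (ENSG00000129451.11, 51012739 to 51020175), once described as a gene lost in breast carcinoma, was the member with the smallest difference between lines. The FaDu controls had 5608, 6027 and 5172 normalized counts, those of Detroit 562 1233, 1302 and 1392, and those of SCC-9 672, 1059 and 1765. FaDu was 4.28-fold above Detroit 562 and 4.81-fold above SCC-9 (adjusted p = 2.51e-05 and 1.09e-05, edgeR). Detroit 562 and SCC-9 overlapped for KLK10, with a log2 fold change of 0.17 and a 95% interval from -0.52 to 0.86.

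KLK11 (ENSG00000167757.13, 51022216 to 51028039), a trypsin-like protease of prostate and other glands, was the sole member called higher in Detroit 562 than in both other lines. Detroit 562 controls had 86.9, 115 and 101 normalized counts, FaDu controls 54.3, 58.4 and 43.3, and SCC-9 controls 8.63, 10.5 and 19.4. The log2 fold change was 0.96 ± 0.40 against FaDu (adjusted p = 0.0414, edgeR) and 2.98 ± 0.48 against SCC-9 (adjusted p = 2.41e-05). The call against FaDu was lost without Detroit 562 control 2 (adjusted p = 0.111) or FaDu control 3 (0.112).

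KLK8 (ENSG00000129455.15, 50996007 to 51002711), also known as neuropsin, and its neighbour KLK9 (ENSG00000213022.5, 51003111 to 51009634), whose substrates are less known, were ranked differently by the lines. KLK8 had 594, 936 and 1381 normalized counts in the SCC-9 controls, 239, 440 and 221 in those of FaDu, and 37.8, 44.6 and 27.0 in those of Detroit 562. For KLK9 the SCC-9 controls had 118, 194 and 262, those of FaDu 357, 710 and 286, and those of Detroit 562 6.62, 6.53 and 2.16. SCC-9 was thus 3.23-fold above FaDu in KLK8 (log2 fold change 1.69 ± 0.37, adjusted p = 0.000569, edgeR) and 2.36-fold below it in KLK9 (-1.24 ± 0.41, adjusted p = 0.0119). The KLK9 call was lost without FaDu control 2 (log2 fold change -0.75, adjusted p = 0.11). Detroit 562 was below both other lines in both genes, 8.18-fold to 85.3-fold.

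Because KLK8 and KLK9 share a read-through gene, their counts were set beside those of CTC-518B2.8. The KLK9 to KLK8 count ratio was 1.29 to 1.64 over the 6 FaDu libraries, 0.176 to 0.208 over the 6 of SCC-9 and 0.0714 to 0.227 over the 6 of Detroit 562, so FaDu overlapped neither other line. The read-through gene had 73 to 294 more counts than KLK8 and KLK9 together in FaDu, which is 17.7 to 21.3% of its own count. It had 23 to 137 more in SCC-9 (3.81 to 7.86%) and 0 to 3 more in Detroit 562. The table leaves a gap of 399 bases between the 2 genes (51002712 to 51003110), and GENCODE 44 places the lower end of KLK9 at 51002508. Outside that gap every base of the read-through gene lies in KLK8 or KLK9, so by the counting rule the excess is the reads lying inside the gap less those that reached both genes. Counts of a read-through transcript and of separate KLK8 and KLK9 transcripts cannot be told apart here.

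Among the neighbouring genes, the kallikreins KLK1, KLK2, KLK3, KLK4 and KLK15 were low throughout. Of these 5, KLK1 alone passed the filter, with 24.1 ± 1.8 normalized counts in control Detroit 562, 10.6 ± 3.3 in FaDu and 4.68 ± 4.80 in SCC-9 (SD, n = 3 each). KLK1, tissue kallikrein, was called higher in Detroit 562 than in FaDu (log2 fold change 1.18, adjusted p = 0.0437) and SCC-9 (2.37, adjusted p = 0.00134, edgeR), as was KLK11.

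KLK10 rose with HGF in Detroit 562, the sole member called in any line in the fit without a replicate block. It was 1 of 9 tested members, where 17.9% of all genes were called and 6.16% called upward, so the share of members called was not above that of all genes. A member that was not called is not thereby shown to be unchanged. KLK10 had 1233, 1302 and 1392 normalized counts in the 3 controls and 1936, 1839 and 3354 with HGF. The groups did not overlap, as in 1 of the 9 members against 38.2% of all genes (18.1% upward), and HGF was higher in 3 of 3 same-numbered pairs, by 1.57, 1.41 and 2.41 times. The log2 fold change was 0.86 ± 0.33 (SE, 95% interval 0.17 to 1.55), a 1.81-fold rise with adjusted p = 0.0626 in edgeR. The exact two-sided permutation test gave p = 0.1, the smallest that 3 against 3 libraries allow. A fit with a replicate block gave a log2 fold change of 0.81 ± 0.11 with adjusted p = 4.89e-05.

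The KLK10 call without the block rested on single libraries. It was lost without HGF library 3, the highest (log2 fold change 0.53, adjusted p = 0.298, edgeR). It was also lost without control 1 (0.82, adjusted p = 0.179) or control 2 (0.86, adjusted p = 0.145), where the log2 fold change stayed near that of the main fit. The share of KLK10 in the summed level per kb of the family was 70.7% ± 3.6 without and 82.2% ± 2.2 with HGF, and the sum itself 487 ± 12.4 and 757 ± 249 (SD, n = 3 each). KLK10 with HGF in Detroit 562 remained below the FaDu range of 4011 to 6045 normalized counts. In the same comparison the fibroblast markers COL1A1 and COL1A2 fell (log2 fold changes -0.77 and -1.04), 2 of the 3 tested, and so did KRT5 and CDH1 (-0.90 and -0.49), 2 of the 7 epithelial markers. The endothelial marker VWF was called lower as well, 1 of 3. Of all genes, 11.7% were called lower in this comparison. The part of these transcripts in the KLK10 result was not tested.

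KLK5 in Detroit 562 went from 21.7, 29.4 and 23.8 to 35.7, 21.6 and 67.1 normalized counts. The groups overlapped and the pairs were split, 2 higher and 1 lower. The log2 fold change of 0.72 ± 0.71 was not called (adjusted p = 0.487, edgeR), but was with the replicate block (0.71 ± 0.32, adjusted p = 0.0823), which made 2 of 9 members called, both upward, against 21.5% of all genes in that fit and 7.13% upward. The remaining 7 tested members were not called in Detroit 562 in either fit. Their log2 fold changes without the block ran from -0.62 for KLK9 to 0.46 for KLK14, both at 1 to 7 counts per library. The median of the 9 members was -0.03, beside -0.01 for all genes tested.

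**Figure D3:**
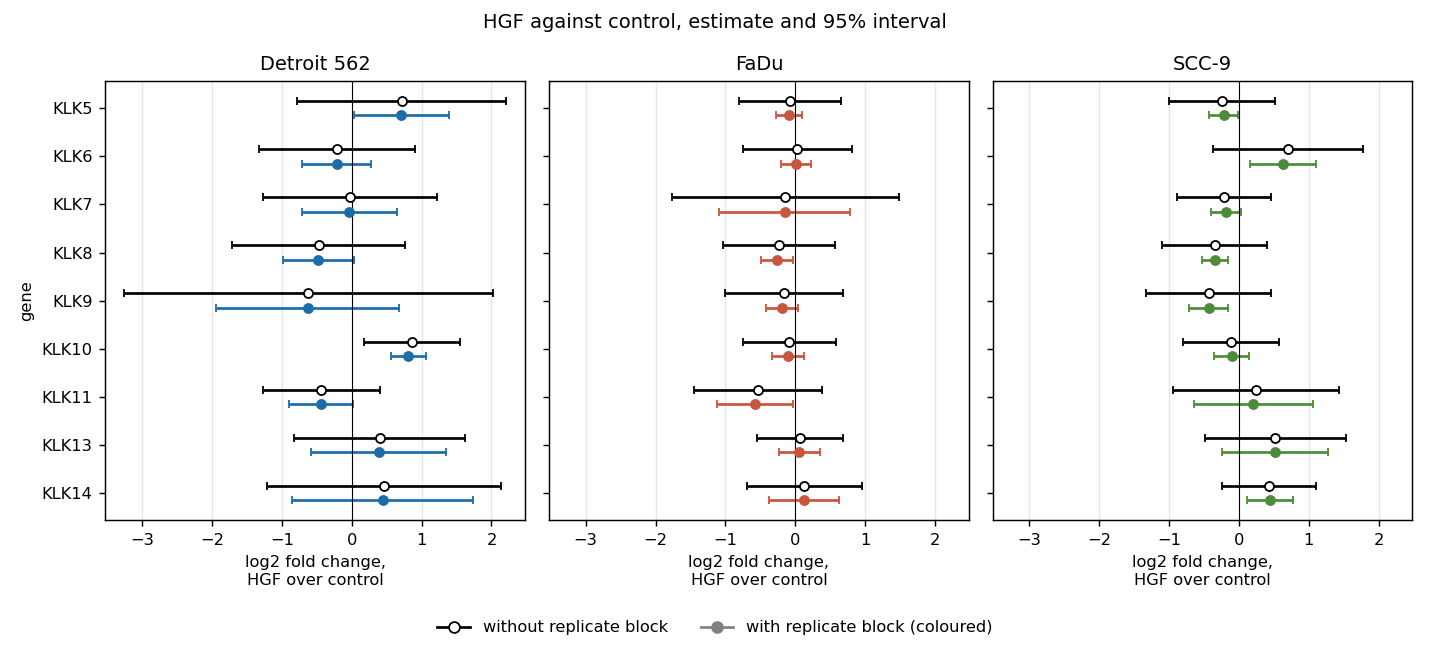
Log2 fold change of HGF against control (x axis) with its 95% interval for the 9 tested members in each line, without a replicate block (open, black) and with a replicate block (filled, coloured). The KLK10 interval in Detroit 562 lies above 0 in both fits, from 0.17 to 1.55 and from 0.57 to 1.06. Every interval without a block crosses 0 in FaDu and SCC-9. With the block, those of KLK5 in Detroit 562 and of KLK8 and KLK11 in FaDu also lie clear of 0. In SCC-9 so do those of KLK5, KLK6, KLK8, KLK9 and KLK14. Of these, KLK5 in Detroit 562 and KLK9 in SCC-9 were called.

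In FaDu, 0 of the 9 members were called with HGF by edgeR or DESeq2, and 0 had an unadjusted p below 0.05. Of all genes 0.0258% were called, and 1247 of 15475 had an unadjusted p below 0.05 (DESeq2 called 66 with and 64 without its prior). The abundant members had log2 fold changes of -0.08 for KLK5 (95% interval -0.81 to 0.65), 0.03 for KLK6 (-0.75 to 0.81) and -0.08 for KLK10 (-0.76 to 0.59). A change of 2-fold in these 3 genes therefore lay outside the intervals in FaDu. KLK13 gave 0.07 (-0.55 to 0.68). The groups overlapped for all 9 members in FaDu, where they did not for 9.41% of all genes. The replicate block gave 0 calls among the members as well, where 5.6% of all genes were called.

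In SCC-9, 0 of 9 members were called by edgeR or DESeq2, as were 0% of all genes by edgeR, and 0 members had an unadjusted p below 0.05, as had 641 of all genes (DESeq2 called 19 with and 17 without its prior). KLK9 had 118, 194 and 262 normalized counts in the controls and 92.0, 141 and 191 with HGF. The groups overlapped, but HGF was lower in 3 of 3 pairs, and with the replicate block KLK9 was called (log2 fold change -0.43 ± 0.13, adjusted p = 0.0955, edgeR), 1 of 9 members against 1.97% of all genes. KLK5, KLK7, KLK8 and KLK10 were lower in 3 of 3 SCC-9 pairs too. The share of all genes with 3 of 3 pairs in the same direction in this line was not counted. KLK8 had a log2 fold change in the blocked fit of -0.34 (adjusted p = 0.0494, edgeR) that fell short of the minimum fold change. For all 9 members the SCC-9 groups overlapped, against 17.4% of all genes whose groups did not. KLK6 and KLK14 were higher in 3 of 3 pairs, and neither was called in either fit. KLK14 was at 83.4, 109 and 189 in control and 110, 181 and 222 with HGF (adjusted p = 1 and 0.148, edgeR without and with the block). Over the 3 lines, KLK8 was the tested member lower with HGF in 9 of 9 same-numbered pairs, as were 8.42% of all genes.

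The difference between lines in the HGF response was tested as an interaction. Without the block 0 of 9 members passed in any pair of lines, where 0.239% of all genes passed for Detroit 562 against FaDu, 0.924% for Detroit 562 against SCC-9 and 0% for SCC-9 against FaDu. The KLK10 difference was 0.94 (95% interval -0.02 to 1.90) against FaDu and 0.97 (-0.0034 to 1.95) against SCC-9 on the log2 scale, with adjusted p = 0.443 and 0.326 in edgeR. With the replicate block the KLK10 response in Detroit 562 exceeded that of FaDu by 0.92 ± 0.16 (adjusted p = 0.00235) and that of SCC-9 by 0.92 ± 0.17 (adjusted p = 0.00184). KLK5 (0.93, adjusted p = 0.065) and KLK6 (-0.84, adjusted p = 0.0789) also passed for Detroit 562 against SCC-9 in the blocked fit of edgeR. That fit passed 1 member against FaDu and 3 against SCC-9, where 19.1% and 26.9% of all genes passed, and 0 for SCC-9 against FaDu, where 1.32% did.

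In SCC-9, and for some members in FaDu, the level within a group followed the replicate number. In control SCC-9, library 3 was the highest of 3 for 8 of 9 tested members, KLK13 being the exception, and with HGF it was the highest for 9 of 9. For 8 members it was the highest in both groups, against 19.4% of all genes. The median ratio of library 3 to library 1 over the 9 members was 2.33 in control and 2.52 with HGF, beside 1.00 for all genes in each. KLK5 stood at 764 in control 1 against 2366 in control 3 and at 655 in HGF 1 against 1864 in HGF 3, a spread larger than the difference between the group means of 1402 and 1183. Over the 6 SCC-9 libraries the levels of KLK7 and KLK10 followed each other with r = 0.99, and those of KLK8 and KLK9 with r = 0.99, across libraries that share this difference. Of 11 tested protease inhibitors 6 were also highest in library 3 of both groups, as were 3 of 5 other proteases and 5 of 7 epithelial markers, but 2 of 12 receptors and substrates, 0 of 3 fibroblast and 0 of 3 endothelial markers. In Detroit 562 the median ratio of library 3 to library 1 over the members was 0.759 in control and 1.41 with HGF, with library 2 the highest for 5 of 9 members in control and library 3 for 5 of 9 with HGF.

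**Figure D4:**
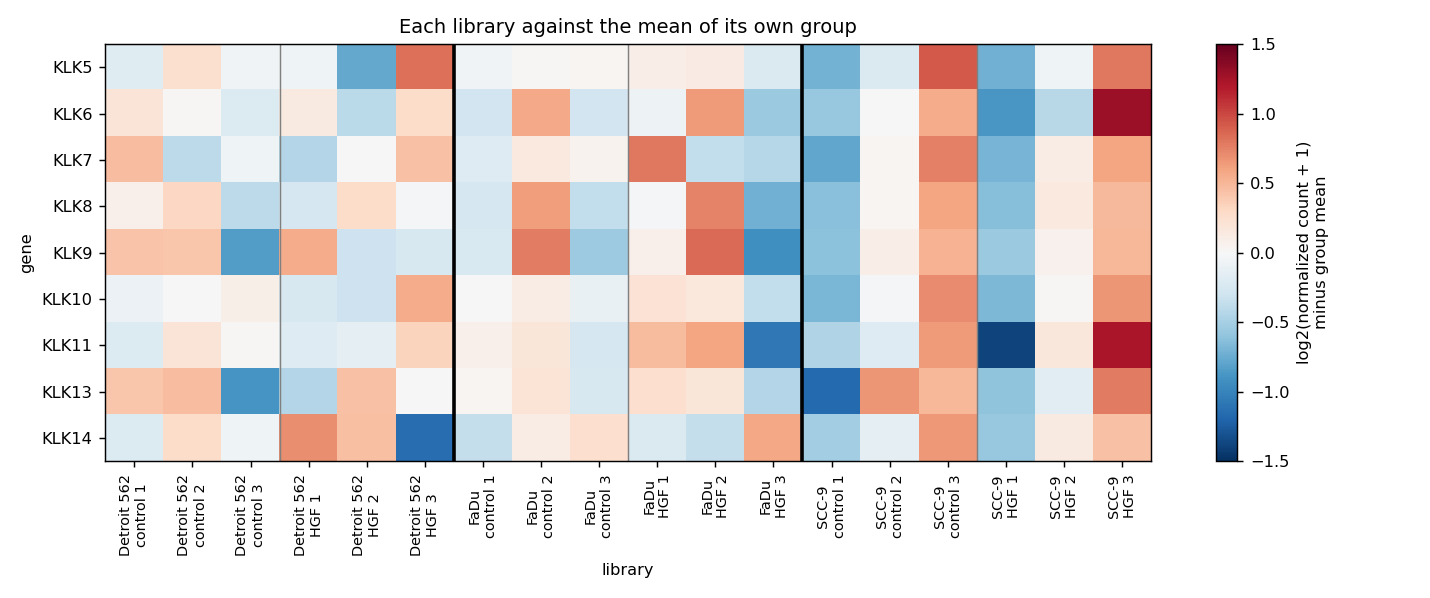
Log2 of the normalized count plus 1 of each tested member in each library, minus the mean of its own group of 3 (colour, red above and blue below the mean). In SCC-9 library 1 is blue and library 3 red for nearly all members in both groups, and in FaDu library 2 stands out for KLK6, KLK8 and KLK9.

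In FaDu the libraries numbered 2 stood out, and for some members only. KLK6 in FaDu library 2 was 1.82 times the mean of libraries 1 and 3 in control and 1.91 times with HGF, KLK8 was 1.91 and 2.12 times, and KLK9 2.21 and 2.29 times. KLK5 in contrast was 1.02 and 1.12 times, and KLK10 1.12 and 1.15 times. Library 2 was the highest in both FaDu groups for 4 of 9 members (KLK6, KLK8, KLK9 and KLK11), against 20.3% of all genes. Over the 6 FaDu libraries KLK6 correlated with KLK8 and KLK9 at r = 0.96 each, and with KLK7, which lies between them, at r = 0.04, where KLK7 had 6 to 16 counts per library.

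The genes whose level over the 18 libraries was most like the mean of the standardized members were RYR1 (r = 0.97), EGR3 (r = 0.96) and IK (r = 0.96). After the mean of each line was subtracted they were SH3GL2 (r = 0.85), AP1M2 (r = 0.84) and UNC13B (r = 0.80). The libraries share line and replicate number, so these are descriptions.

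Some of the listed protease inhibitors fell with HGF in Detroit 562, and whether they act on KLK10 was not tested. Of 16 listed inhibitors 11 passed the filter over all groups, and 3 were called lower and 0 higher, where 11.7% and 6.16% of all genes were. SPINK6, with 0 counts in every Detroit 562 library, and SERPINA5, with 0 to 1, were among the 11 and could not show a change in this line. SPINK5, which encodes LEKTI, fell from 871 ± 233 to 332 ± 138 normalized counts (SD, n = 3; log2 fold change -1.39 ± 0.28, adjusted p = 0.00321, edgeR). SLPI, a secreted inhibitor of leukocyte elastase, fell from 12881 ± 1898 to 8652 ± 1239 (-0.57 ± 0.16, adjusted p = 0.0143). A2ML1, a broad protease trap of stratified epithelium, was at 7 to 12 counts in control and 2 to 3 with HGF (-1.66 ± 0.56, adjusted p = 0.04). With the replicate block SERPINA1 and PI3 were called lower as well.

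Of 10 other proteases, 5 were tested. PRSS8 (prostasin) and CTSV, a cathepsin, were called lower with HGF in Detroit 562 (log2 fold changes -0.66 and -0.61, adjusted p = 0.0163 and 0.0223, edgeR), and PLAU, the urokinase that activates plasminogen, higher (0.42, adjusted p = 0.0677). ST14 (matriptase), which can activate kallikrein precursors, went from 10394 ± 1134 to 7892 ± 1151 and stopped just short of the minimum fold change (-0.40, adjusted p = 0.016), which it passed in the blocked fit. Of 16 receptors and substrates 12 were tested, with 3 called higher and 0 lower in Detroit 562, where 6.16% and 11.7% of all genes were. They were F2R, a protease-activated receptor (0.69, adjusted p = 0.00594), PLAUR, the urokinase receptor (1.19, adjusted p = 0.0101), and IL1B, a cytokine precursor (1.44, adjusted p = 0.0338, edgeR). IL1B was low in Detroit 562, at 6 to 9 counts in control and 16 to 26 with HGF. F2RL1, which encodes PAR2, had 2893 ± 134 normalized counts in control and 3465 ± 419 with HGF and was not called, its log2 fold change of 0.26 being below the minimum (adjusted p = 0.0544). DSG3, a desmosomal cadherin, was called lower with the replicate block only (-0.74, adjusted p = 7.28e-05), and FLG was at 0 to 1 counts in this line. In FaDu and SCC-9, 0 of these 28 genes were called without the block, where 0.0258% and 0% of all genes were. With the block 6 of the 28 were called in FaDu, against 5.6% of all genes, and 0 in SCC-9, against 1.97%. In FaDu these were SERPINA1 (0.65, adjusted p = 0.000572), PLAUR (0.65, adjusted p = 0.00236) and MMP9, a gelatinase (2.14, adjusted p = 0.000208), which rose, and PRSS8 (-0.56, adjusted p = 0.00048), L1CAM, an adhesion molecule (-0.60, adjusted p = 0.00667), and FLG, filaggrin (-1.05, adjusted p = 0.0956, edgeR), which fell.

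**Figure D5:**
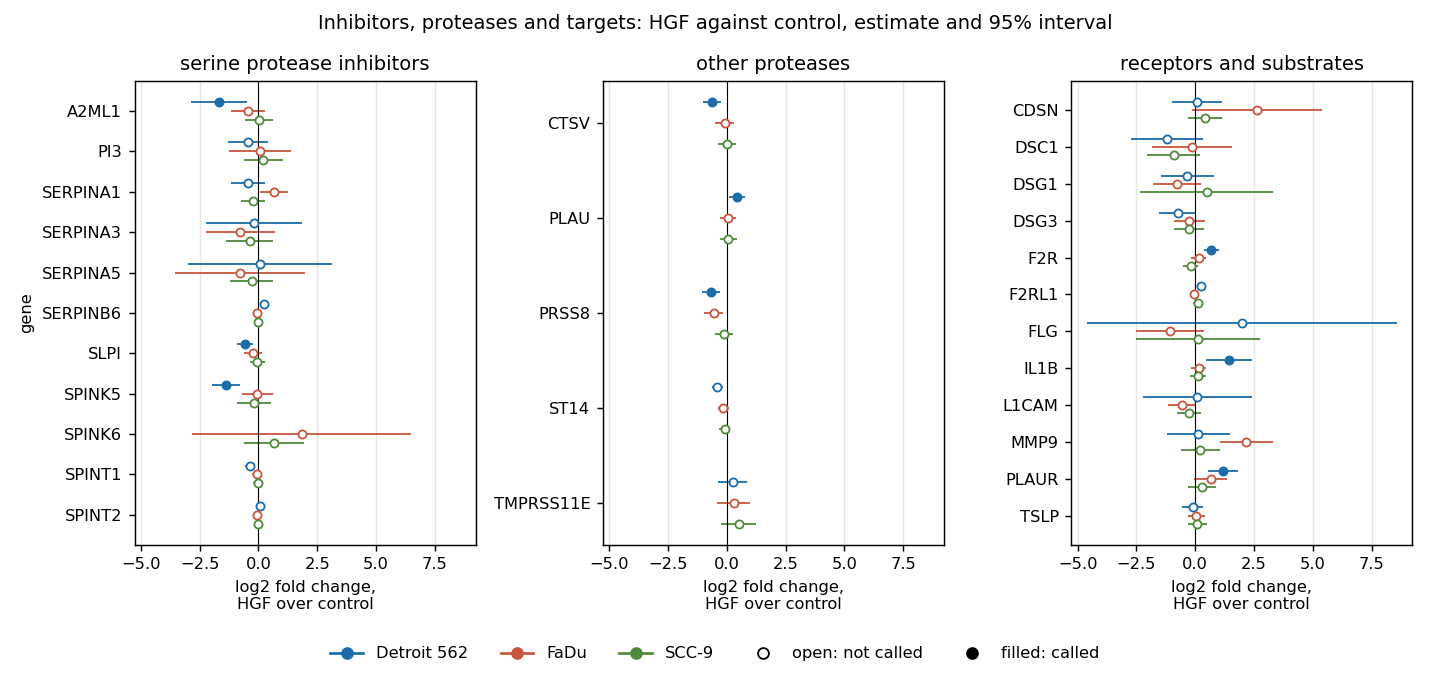
Log2 fold change of HGF against control (x axis) with its 95% interval for the 28 tested inhibitors, other proteases, and receptors and substrates, in Detroit 562 (blue), FaDu (red) and SCC-9 (green), without a replicate block. Filled points were called, all of them in Detroit 562, with A2ML1, SPINK5, SLPI, PRSS8 and CTSV below 0 and PLAUR, IL1B, F2R and PLAU above it, and SPINK6 in Detroit 562 is left out because all its counts were 0.

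The lines differed in the same partners without HGF. SPINK5 was higher in untreated Detroit 562 than in FaDu (log2 fold change 2.95 ± 0.30, adjusted p = 1.35e-07) and SCC-9 (3.77 ± 0.32, adjusted p = 1.13e-08, edgeR), whereas KLK5 was lowest in Detroit 562. SERPINA1, which inhibits several serine proteases, was at 2205 ± 427 normalized counts in control SCC-9 against 131 ± 43.4 in FaDu and 85.5 ± 13.9 in Detroit 562. Of the 11 tested inhibitors, 8 were called higher and 1 lower in SCC-9 than in FaDu, where 33.5% and 30.7% of all genes were. SPINK6 (0 counts in control FaDu, 3 to 19 in control SCC-9) and SERPINA5 (0 to 1 and 9 to 15) could only come out higher in SCC-9. F2RL1 was highest in untreated Detroit 562, at 2893 ± 134, with 1990 ± 154 for FaDu and 879 ± 90.2 for SCC-9 (SD, n = 3 each), with adjusted p = 7.8e-05 between Detroit 562 and FaDu and 9.91e-09 between SCC-9 and FaDu in edgeR. DSG3 followed yet another order, from 273 ± 137 in Detroit 562 to 2596 ± 409 in FaDu and 8042 ± 1779 in SCC-9.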

How the data were processed

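mRNA of 3 HNSCC cell lines, untreated or with HGF, was sequenced from stranded poly-A libraries. The submitters' processing notes name bcl2fastq 2.20.0.422, Cutadapt 1.16, STAR 2.5.2b, bedtools and DESeq2 1.22.1. Adapters were removed by the authors, who then mapped the reads to GRCh38.p12 and counted them against GENCODE 28 with regard to strand. The deposited table holds raw counts. Reads in overlapping genes entered the count of each, so neighbours can share reads.

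Genes were tested with edgeR 4.0.16 (TMM, filterByExpr, glmQLFit and glmQLFTest) in R 4.3.3, using 1 model of 6 groups over 18 libraries. Of 19901 genes 15475 passed the filter, and p-values were adjusted over all of these. Intervals are 95%. Alternatives were DESeq2 size factors in edgeR, no filter, DESeq2 1.42.0 with and without a prior, a replicate block, a fit of 1 line, a stricter threshold and leaving out each library. Same-numbered control and HGF libraries deviated together from their group means (r across genes 0.12 to 0.51 in all 9 pairs, against -0.43 to 0.19 for other numbers), so the numbers were taken to pair the libraries. Deviations within a group sum to 0, so a positive r for same numbers pulls the others below 0. The 2 ranges are therefore not independent. The pairing was read from these same data and is not stated by the labels, and the blocked fits and pair counts rest on it. The pairing was least clear for Detroit 562 HGF 2, at 0.12 with control 2 and 0.19 with control 1. Genes are not independent replicates.

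Named genes were the 10 members, 10 genes beside the cluster (9 with a row, 2 tested), lists of inhibitors, proteases, targets and cell type markers, and the genes most alike. Members and lists were chosen with earlier results of these data known. Endothelial markers summed to 19.5 to 334 normalized counts. Protein sequences were not used here.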

Additional observations from a re-analysis of the deposited data

Results flagged for a closer look

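In the fit with a replicate block, the HGF response of 3 members differed between lines in the test of the interaction (edgeR), 1 of 9 against FaDu, where 19.1% of all genes passed, and 3 of 9 against SCC-9, where 26.9% did. The KLK10 response was higher in Detroit 562 than in FaDu by 0.92 on the log2 scale (adjusted p = 0.00235) and higher than in SCC-9 by 0.92 (adjusted p = 0.00184), HGF being higher in 3 of 3 pairs in Detroit 562, 1 of 3 in FaDu and 0 of 3 in SCC-9. The KLK5 response in Detroit 562 exceeded that in SCC-9 by 0.93 (adjusted p = 0.065), with 2 of 3 and 0 of 3 pairs higher. The KLK6 response differed by -0.84 (adjusted p = 0.0789), with 1 of 3 pairs higher in Detroit 562 and 3 of 3 in SCC-9. None of these passed without the block, where adjusted p ran from 0.326 to 0.587. In the fit without the block single libraries moved the differences by over 1.5 times. Without Detroit 562 HGF library 3 the KLK10 difference was 0.61 against FaDu and 0.64 against SCC-9, and without SCC-9 control 3 it was 0.55 against SCC-9. The KLK5 difference was 0.47 without Detroit 562 HGF 3, 0.36 without SCC-9 control 3 and 1.45 without SCC-9 HGF 3. That of KLK6 was 0.041 without SCC-9 HGF 3, a library at 265 normalized counts beside 58.5 and 80.5.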

How the results depend on the processing

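Differences between untreated lines kept their direction and their call under every alternative run, except KLK7, KLK11, KLK13 (Detroit 562 against SCC-9, called without SCC-9 control 1, adjusted p = 0.09) and KLK9 as given beside them, and KLK10 between Detroit 562 and SCC-9, which was not called. KLK11 between Detroit 562 and FaDu also missed the stricter threshold (adjusted p below 0.05 and log2 fold change of at least 1). For HGF in Detroit 562 the members called were 1 in the main fit, 2 with the replicate block, 0 under the stricter threshold and 0 to 1 without single libraries. In SCC-9 they were 0 and, with the block, 1. In the interactions they were 0 and, with the block, 1 for Detroit 562 against FaDu and 3 for Detroit 562 against SCC-9. The block changed no other call beyond KLK7 between untreated Detroit 562 and FaDu. A block shared by the lines, added after the data were seen, gave KLK10 in Detroit 562 adjusted p = 0.0407, and over the other alternatives with all libraries its adjusted p was 4.89e-05 to 0.0707. Over all genes, calls with HGF were 2766 in Detroit 562 (621 to 3327 over alternatives with all libraries), 4 in FaDu (0 to 867) and 0 in SCC-9 (0 to 305), and interactions gave 37 (39 to 2956), 143 (97 to 4170) and 0 (0 to 204).

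Leaving out 1 library, in fits without a replicate block, turned the sign of members that were not called. The same-numbered partner of that library was then left without a pair. The log2 fold changes of these members ran over these ranges. With HGF in Detroit 562 they were KLK7 -0.28 to 0.26. In FaDu they were KLK5 -0.14 to 0.029, KLK6 -0.35 to 0.38, KLK7 -0.74 to 0.10, KLK8 -0.69 to 0.15, KLK9 -0.67 to 0.33, KLK10 -0.19 to 0.091, KLK13 -0.064 to 0.26 and KLK14 -0.22 to 0.30. In SCC-9 they were KLK5 -0.73 to 0.36, KLK6 -0.24 to 1.06, KLK7 -0.55 to 0.24, KLK10 -0.50 to 0.31 and KLK11 -0.57 to 0.70. Between untreated Detroit 562 and SCC-9 they were KLK10 -0.10 to 0.60. For the response in Detroit 562 against FaDu they were KLK6 -0.58 to 0.15. For the response in Detroit 562 against SCC-9 they were KLK6 -1.27 to 0.041. In the same-numbered pairs of SCC-9, KLK5, KLK7 and KLK10 were lower with HGF in 3 of 3. KLK6 was higher there in 3 of 3 and KLK11 in 2 of 3. 

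Members with under 20 counts per library (KLK9, KLK13 and KLK14 in Detroit 562, KLK7 in FaDu) had wide intervals, and a change with HGF in them was not detectable at this depth unless large.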

Other observations

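KLK8 was lower with HGF in 9 of 9 same-numbered pairs of the 3 lines, a count made after the values were seen. The ratios of HGF to control were 0.577, 0.714 and 0.949 for the Detroit 562 pairs, 0.965, 0.896 and 0.640 for those of FaDu, and 0.783, 0.859 and 0.734 for those of SCC-9. Averaged over the lines, the log2 fold change of KLK8 was -0.36 ± 0.09 (SE, adjusted p = 0.00568) with the replicate block and -0.35 ± 0.26 (adjusted p = 0.361) without it, in edgeR. In the blocked fit 49.2% of all genes passed on the adjusted p alone, as did KLK8 and KLK10 (0.20 ± 0.07, adjusted p = 0.0228), and neither reached the minimum fold change, which 8.8% of all genes passed as well. KLK9, its neighbour under the same read-through gene, was lower in 7 of 9 pairs. KLK14 was higher in 7 of 9 pairs and KLK11 lower in 7 of 9, and neither average passed (adjusted p = 0.246 and 0.236 with the block).

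CTU1, a tRNA-modifying enzyme gene outside the kallikrein cluster, was the neighbour called with HGF in Detroit 562 (log2 fold change 0.52 ± 0.19, adjusted p = 0.0474, edgeR), from 186 ± 32.5 to 267 ± 65.6 normalized counts (SD, n = 3).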
